A study of Mus musculus with 36 samples.

Results

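The circadian clock genes of epididymal white adipose tissue (eWAT) were described as 10 genes, *Arntl*, *Npas2*, *Per1*, *Per2*, *Per3*, *Cry1*, *Ciart*, *Nr1d1*, *Nr1d2* and *Dbp*. They were found by gene symbol among the 24750 genes of the RNA-seq table. All 10 were present with 1 row each, and all 10 passed the filter on low values. The 36 libraries came from 36 male mice, with 3 mice in each of 12 groups. WT mice were C57BL/6. CCL19-KI mice carried *Ccl19*, a chemokine gene, inserted at the *Adipoq* locus so that adipocytes, which use the *Adipoq* promoter, also make CCL19, with *Adipoq* itself kept. The inserted line was homozygous and was bred apart from the WT mice. Mice of each genotype were fed a normal diet (ND), a 40% high-fat diet (HFD) or a 60% HFD for 10 weeks per the labels, and had either no ligature or a tooth ligature that gave periodontitis for 2 weeks. The series' own description puts the mice at 14 weeks of age and 8 weeks of feeding when the ligature was placed. That description speaks of ligatures in all mice, while the sample labels give 6 groups without one. The labels were followed, so every ligature effect here rests on them. All mice were kept in a 12-hour light and dark cycle with free access to food, and lymph nodes were taken out of the fat. The hour of the day at which the fat was collected is not given in the sources used here.

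The circadian clock is a transcription loop that runs in nearly every cell, fat cells included. BMAL1, the protein of *Arntl*, pairs with CLOCK or with its relative NPAS2 and activates genes that carry E-boxes in their promoters. Among those genes are *Per1*, *Per2*, *Per3*, *Cry1* and *Ciart*, whose proteins repress the activators, and *Nr1d1* and *Nr1d2*, which encode the nuclear receptors REV-ERB alpha and beta that repress *Arntl* and *Npas2*. *Dbp* encodes an output factor of the loop that binds D-boxes, such as those near *Per* genes. In liver and fat of mice, *Arntl* and *Npas2* peak at the opposite side of the day from *Dbp*, and the *Per* genes peak at about the time of *Dbp* or after it.

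The libraries held 11962228 to 21581595 reads, and 1 read was worth 0.0472 to 0.0834 CPM, the count scaled to the size of the library and normalized. *Ccl19* had a median of 1.25 CPM in WT mice (lowest 0.507, highest 19.2) and 16.2 CPM in CCL19-KI mice (lowest 0.687, highest 34.6). The library labelled ND WT replicate 2, at 19.2 CPM, and the library labelled 60% HFD CCL19-KI replicate 3, at 0.687 CPM, went against their genotype labels. Both were used as labelled. For the clock genes named above and their pairs, results without these 2 libraries are also given where calls changed or were checked. For other genes, the tissue markers among them, only shares of all genes called are given without these 2 libraries. Relations of clock genes with tissue markers or with other genes are given with all libraries only. Whether results beyond the clock genes and their pairs change is not given here. The adipocyte markers *Adipoq* and *Fabp4* were present in every library. RNA of other tissues was also present: 8 hepatocyte markers summed to 130 to 39125 CPM, and 8 epididymis markers summed to over 1000 CPM in 6 libraries, the above 2 among them. A bulk library cannot tell fewer cells of a type from less RNA per cell.

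The members differ in the clock elements found by exact match in their promoters, so the sequences of 3 genes with different contents are shown. Each covers the 250 bases upstream of the annotated start (RefSeq, GRCm38.p6), read 5′ to 3′ on the gene's strand, with capitals for matched elements. *Ciart* (chr3:95882229-95882478, minus strand) holds 3 E-boxes (CACGTG, which reads the same on both strands). *Per3* (chr4:151044666-151044915, minus strand) holds 2 D-boxes (TTANGTAA, with N for any base, on either strand). *Arntl* (chr7:113207215-113207464, plus strand) holds no exact match to the elements searched and has no capitals. The window of another annotated start of *Arntl* (chr7:113207261-113207510), not shown, held none either. Elements that differ from the searched letters are missed, so a gene without a match may still carry one.
Ciart: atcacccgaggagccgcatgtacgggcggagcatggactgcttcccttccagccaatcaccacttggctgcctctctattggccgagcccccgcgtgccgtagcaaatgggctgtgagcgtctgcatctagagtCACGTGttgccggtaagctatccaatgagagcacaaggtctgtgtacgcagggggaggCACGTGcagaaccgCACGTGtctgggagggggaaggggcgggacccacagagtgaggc
Per3: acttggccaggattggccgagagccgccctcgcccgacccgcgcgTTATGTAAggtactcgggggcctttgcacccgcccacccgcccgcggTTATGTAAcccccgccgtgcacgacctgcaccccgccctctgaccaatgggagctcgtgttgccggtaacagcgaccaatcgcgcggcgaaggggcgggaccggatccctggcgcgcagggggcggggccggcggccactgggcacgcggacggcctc
Arntl: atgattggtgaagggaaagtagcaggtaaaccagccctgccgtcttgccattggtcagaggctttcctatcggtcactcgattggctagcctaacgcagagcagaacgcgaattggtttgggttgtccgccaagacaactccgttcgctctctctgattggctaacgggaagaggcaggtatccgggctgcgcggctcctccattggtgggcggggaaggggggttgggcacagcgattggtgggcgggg

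Promoters were found for 9 of the 10 members, all but *Per2*. A member counts if any of its windows matches, while the shares are of single promoters. The E-box was in those of *Per1*, *Cry1* and *Ciart*, and in 6.02% of all 32851 promoters. *Per1* had 2 windows, of which 1 held the E-box and the other held no match. The related element CACGTT, searched on both strands, was in those of *Cry1* and *Nr1d1*, and in 3.85% of all promoters. The D-box was in that of *Per3* alone among the 9, and in 2.06% of all. The element TAGGTCA, bound by ROR and REV-ERB receptors and searched on both strands, was in none of the 9 and in 2.23% of all. These matches describe letters in a short window, and say nothing of binding.

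Under a 60% HFD, both activators were higher than under ND, and 2 *Per* genes were lower. Averaged over genotype and ligature, 4 of the 10 members passed the test (adjusted p below 0.05, limma), where 18.6% of all 17852 genes tested did. *Arntl* and *Npas2* rose, as did 10.2% of all genes, and *Per2* and *Per3* fell, as did 8.4%. At an unadjusted p below 0.05 there were 7 members, and 34.8% of all genes. Changes are differences of log2(CPM + 1), which understates changes of genes near 1 CPM such as *Npas2* and *Ciart*. The median change of the 10 members was −0.23, against 0.01 over all genes.

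*Arntl* (chromosome 7, 113207465 to 113314126, GRCm38), the activator without which the loop stops, had a lowest, median and highest level of 1.72, 4.81 and 12.0 CPM in the 12 ND-fed mice. In the 12 mice under a 60% HFD these were 5.76, 8.28 and 11.8 CPM. All 12 mice under a 60% HFD lay above the ND median, and 8 of the 12 ND-fed mice lay below all of them. *Arntl* rose by 0.79 (SE 0.18, adjusted p = 0.0050). *Npas2* (chromosome 1, 39193731 to 39363236), the partner that can stand in for CLOCK, had 0.811, 1.51 and 2.69 CPM under ND and 1.54, 2.99 and 4.12 CPM under a 60% HFD. All 12 mice under a 60% HFD lay above the ND median, and 7 of them above every ND-fed mouse. *Npas2* rose by 0.61 (SE 0.17, adjusted p = 0.0153).

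*Per3* (chromosome 4, 151003652 to 151044665), a *Per* gene whose protein is a weaker repressor than those of the other two, moved the other way. Its lowest, median and highest levels were 29.4, 60.6 and 97.8 CPM under ND and 25.6, 32.2 and 61.8 CPM under a 60% HFD. The ranges overlapped, with 6 of the 12 ND-fed mice above every mouse under a 60% HFD. *Per3* fell by 0.63 on the log2 scale (SE 0.16, adjusted p = 0.0090). *Per2* (chromosome 1, 91415982 to 91459324), a core repressor, had 21.6, 39.5 and 68.9 CPM under ND and 17.3, 25.1 and 39.1 CPM under a 60% HFD. It fell by 0.57 (SE 0.19, adjusted p = 0.0325), a call kept in 26 of the 36 fits that left out 1 mouse, while those of *Arntl*, *Npas2* and *Per3* were kept in all 36. All 12 mice under a 60% HFD were below the ND median, and 6 of the 12 ND-fed mice were above all of them.

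The other 6 members did not pass the test at a 60% HFD. *Per1*, a core repressor that also responds quickly to hormones and feeding, changed by −0.34 (adjusted p = 0.080), *Nr1d2* by −0.29 (adjusted p = 0.070) and *Dbp* by −0.44 (adjusted p = 0.135). *Cry1*, the partner of the PER proteins, changed by −0.16 (95% interval −0.50 to 0.19), and *Nr1d1*, the REV-ERB alpha gene, by −0.12 (−0.51 to 0.26). *Ciart*, a repressor of the BMAL1 complex, changed by −0.10 with the widest interval, −0.76 to 0.57. Without the 2 libraries that went against their labels, *Arntl* (0.84, adjusted p = 0.0077), *Npas2* (0.63, adjusted p = 0.0226) and *Per3* (−0.67, adjusted p = 0.0062) still passed. *Per1* then passed (−0.42, adjusted p = 0.0328) and *Per2* did not (−0.53, adjusted p = 0.0708), with 14.7% of all genes called.

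**Figure D1:**
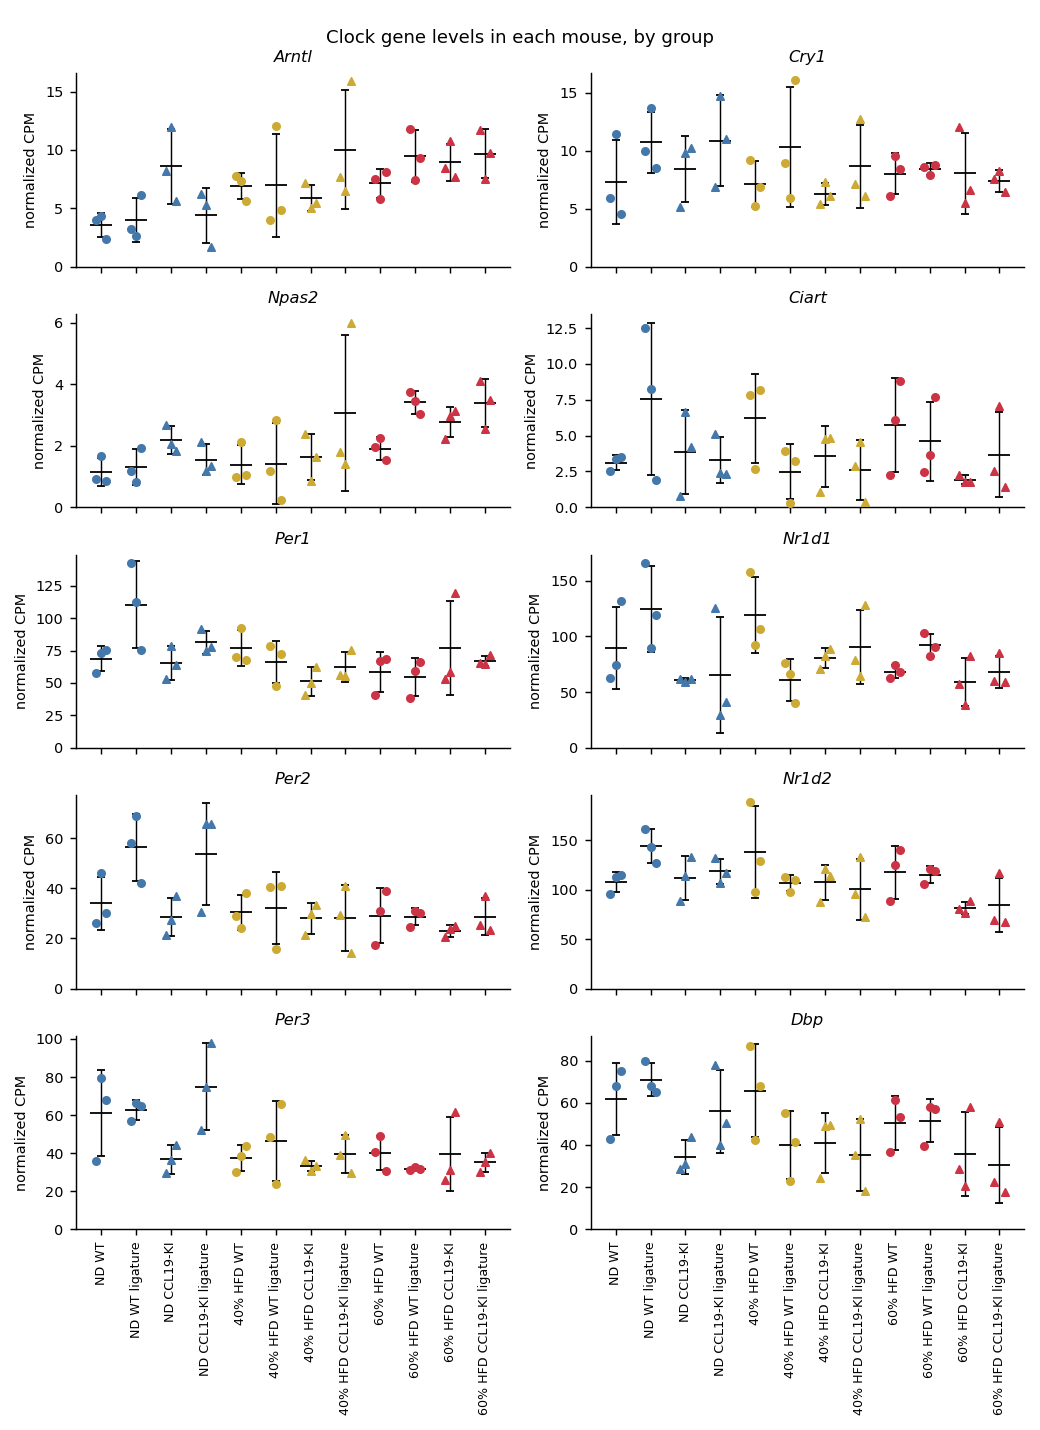
Normalized CPM of the 10 clock genes in each of the 36 mice, on linear axes from 0, by group. Blue is ND, yellow 40% HFD and red 60% HFD, circles are WT and triangles CCL19-KI mice, and bars show mean ± SD of 3 mice. *Arntl* is lowest in the ND WT mice (3.57 ± 1.03 CPM), and *Ciart* is the most spread within groups.

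Under a 40% HFD, only *Per3* passed the test, against 9.21% of all genes. Its lowest, median and highest levels were 24.0, 37.3 and 65.9 CPM, and 11 of 12 mice lay below the ND median. *Per3* fell by 0.55 on the log2 scale (SE 0.16, adjusted p = 0.0316), and by 0.49 without the 2 libraries (adjusted p = 0.0386). The call was kept in 30 of the 36 fits that left out 1 mouse. *Arntl* had 4.03, 6.84 and 15.9 CPM, a change of 0.51 (adjusted p = 0.075), and *Per2* changed by −0.49 (adjusted p = 0.087). *Npas2* changed by 0.08 (95% interval −0.27 to 0.42). The 40% and 60% comparisons share the 12 ND-fed mice and are not independent. At an unadjusted p below 0.05 there were 4 members, and 26.5% of all genes. Between the 2 high-fat diets, 0 of 10 members passed the limma test, and 1 did at an unadjusted p below 0.05, as did 13.2% of all genes. That was *Npas2*, 0.54 higher under the 60% HFD (SE 0.17, adjusted p = 0.137), where 0.745% of all genes were called. By edgeR's quasi-likelihood test on the recovered reads 0 passed as well.

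**Figure D2:**
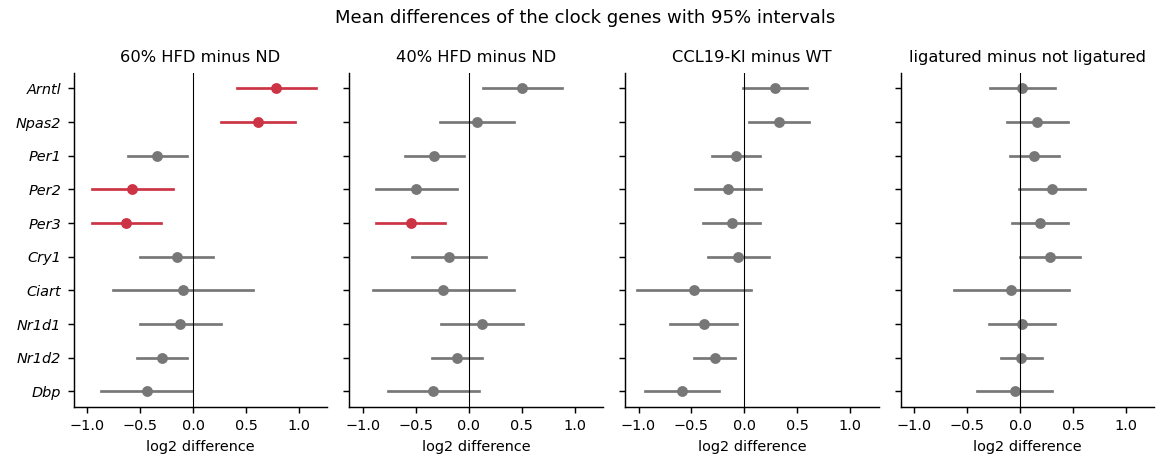
Log2 changes of the 10 genes with 95% intervals for 40% HFD, 60% HFD, genotype and ligature, each averaged over the other factors (36 mice). Red marks an adjusted p below 0.05, seen for *Arntl*, *Npas2*, *Per2* and *Per3* at 60% HFD and for *Per3* at 40% HFD.

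Markers of other tissues moved with diet. Of the 8 hepatocyte markers, 7 were higher under each HFD, with median changes of 3.87 at 40% and 3.05 at 60%. In CCL19-KI mice without ligature they went the other way at 60%. Their sums there were 1056, 20863 and 25734 CPM under ND and 853, 1470 and 1390 CPM under a 60% HFD. The 60% change of *Arntl* in these mice was 0.10, and whether it is linked to the hepatocyte RNA was not tested. Epididymis markers in this 60% HFD group summed to 346, 4393 and 12723 CPM, the last in the library whose *Ccl19* went against its label. Over each diet, the hepatocyte markers summed to 130 to 25734 CPM under ND, 1772 to 39125 CPM under a 40% HFD and 853 to 38185 CPM under a 60% HFD. The albumin gene *Alb* ran from 5.5 to 26901 CPM over the libraries. At 60% HFD, 4 of 8 kidney tubule and 3 of 6 macrophage markers were also higher. With the hepatocyte score as a covariate, 7 members passed at 60% HFD: *Arntl* (0.90) and *Npas2* (0.88) were higher, and *Per2* (−0.79), *Per3* (−0.63), *Ciart* (−0.96), *Nr1d2* (−0.51) and *Dbp* (−0.78) were lower. The share of all genes called in this fit is not given here. Over the alternatives, 782 to 7846 genes were called at 60% HFD, against 3315 in the main fit. The 7 are therefore not by themselves a result about the clock genes. Without the 6 libraries with the most epididymis RNA, *Arntl* (1.02) and *Per3* (−0.81) passed, where 16.5% of all genes did. Without the 11 libraries whose hepatocyte markers summed to over 20000 CPM, 0 did at an adjusted p below 0.05 by limma, with 6 at an unadjusted p below 0.05 and 4.38% of all genes called, and values of 0.81 for *Arntl*, 0.58 for *Npas2*, −0.66 for *Per3* and −0.55 for *Per2* (adjusted p = 0.073 to 0.128).

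Between genotypes, 0 of the 10 members passed the limma test averaged over diet and ligature, where 0.459% of all genes did, and 0 passed by edgeR. At an unadjusted p below 0.05 there were 4 members, and 16.9% of all genes. *Dbp*, the output factor, had a lowest, median and highest level of 23.1, 57.5 and 86.8 CPM in 18 WT mice and 17.8, 37.6 and 77.9 CPM in 18 CCL19-KI mice. The ranges overlapped over most of their length. Its change in CCL19-KI mice was −0.59 (SE 0.17, adjusted p = 0.10). Without the 2 libraries that went against their labels it was −0.64 (SE 0.17, adjusted p = 0.0277), and 7.21% of all genes were then called. The REV-ERB genes had the same sign, with −0.39 for *Nr1d1* (adjusted p = 0.196) and −0.28 for *Nr1d2* (adjusted p = 0.137), while *Npas2* changed by 0.32 (adjusted p = 0.233). Adipocyte markers moved too: all 8 had a negative change in CCL19-KI mice with a median of −0.39, the 1 that passed was *Adipoq*, where the insert lies, and their sum ran from 4650 to 25932 CPM in WT and 5673 to 19592 CPM in CCL19-KI mice. With the adipocyte score as a covariate, *Dbp* (−0.80, SE 0.20, adjusted p = 0.0344) and *Nr1d2* (−0.48, SE 0.09, adjusted p = 0.0119) passed. That score includes *Adipoq* itself, with a median of 2323 CPM in WT and 616 CPM in CCL19-KI mice. The covariate thus partly carries genotype, and the 2 changes cannot be read as genotype effects freed of adipocyte RNA. The share of all genes in that fit is not given here, and over the alternatives 1 to 3795 genes were called for genotype.

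Within ND-fed mice without ligature, *Arntl* was higher in CCL19-KI mice. It had 3.97, 4.34 and 2.40 CPM in WT mice and 8.21, 12.0 and 5.60 CPM in CCL19-KI mice. The groups did not overlap, as in 28.1% of all genes. *Arntl* rose by 1.04 (SE 0.36, adjusted p = 0.0486), and by 1.17 without the 2 libraries (adjusted p = 0.0498); 16.6% of all genes were called. It was the sole member to pass in the 6 genotype comparisons, and the count of calls there was 1 in 9 of the 36 fits that left out 1 mouse, and 0 or 2 in the others. In the other 5, 16.8% (60% HFD), 0.0056% (40% HFD) and, with ligature, 1.03% (ND), 0.0112% (40% HFD) and 0.0112% (60% HFD) of all genes passed. The hepatocyte markers differed between these groups as well, with sums of 130 to 1540 CPM in WT and 1056 to 25734 CPM in CCL19-KI mice. With the hepatocyte score as a covariate the *Arntl* change was 1.33 and did not pass (adjusted p = 0.121). It also did not pass with the kidney tubule covariate, with the replicate number as a block, without the 11 hepatocyte-rich libraries, with a pseudocount of 5, with no filter or after quantile normalization. Among ligatured ND-fed mice, *Nr1d1* had 166, 89.6 and 119 CPM in WT mice and 125, 29.7 and 41.1 CPM in CCL19-KI mice, a change of −1.16 (SE 0.37, adjusted p = 0.130).

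The ligature averaged over diet and genotype called 0 of 10 members with limma or edgeR, 0 at an unadjusted p below 0.05 with limma, and 0.325% and 16.2% of all genes. The values ran from −0.08 for *Ciart* to 0.30 for *Per2* (95% interval −0.01 to 0.61), and *Arntl* changed by 0.02 (−0.28 to 0.33). In the 6 comparisons within diet and genotype, 0 members passed with limma or edgeR, where 6.73% of all genes passed in ND WT, 1.37% in ND CCL19-KI, 5.66% in 60% HFD CCL19-KI mice and 0% in the other three. At an unadjusted p below 0.05 there were 5 calls, with 24.5%, 15%, 1.19%, 18.1%, 1.69% and 25.5% of all genes in WT and then CCL19-KI mice under ND, 40% and 60% HFD. The widest was *Per3* in ND-fed CCL19-KI mice, with 29.4, 36.5 and 44.3 CPM without and 52.2, 74.8 and 97.8 CPM with ligature. These groups did not overlap, as in 17.1% of all genes, and the change was 0.98 (SE 0.32, adjusted p = 0.102). In the fit without the 2 libraries it passed (SE 0.28, adjusted p = 0.0490), with 3.97% of genes called, although neither library is in these groups.

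The 60% HFD comparisons were also made within genotype and ligature. In ligatured WT mice, *Per1* had 142, 112 and 75.6 CPM under ND and 38.5, 59.1 and 66.2 CPM under a 60% HFD. *Per1* fell by 0.99 on the log2 scale (SE 0.27, adjusted p = 0.0492), where 2.57% of all genes passed. The groups did not overlap for 7 members there, against 35.3% of all genes: *Arntl* and *Npas2* were higher, and *Per1*, *Per2*, *Per3*, *Nr1d2* and *Dbp* lower. In the other settings the groups did not overlap for 4 members in ligatured CCL19-KI mice (36.9% of all genes), 1 in WT mice without ligature (24.3%) and 1 in CCL19-KI mice without ligature (18.1%). In ligatured CCL19-KI mice, *Arntl* had 6.19, 5.28 and 1.72 CPM under ND and 11.7, 7.55 and 9.76 CPM under a 60% HFD, and rose by 1.08 (SE 0.36, adjusted p = 0.0485). *Per3* had 52.2, 74.8 and 97.8 CPM under ND and 30.1, 35.4 and 39.9 CPM under a 60% HFD, and fell by 1.04 (SE 0.32, adjusted p = 0.0356). These 2 members passed where 12.8% of all genes did. Without ligature 0 members passed with limma in the 60% comparisons, where 3.41% of all genes in WT and 10.2% in CCL19-KI mice did. At an unadjusted p below 0.05 there was 1 member in WT mice (16.8% of all genes) and 0 in CCL19-KI mice (31.2%). There the change of *Arntl* was 0.85 in WT mice and 0.10 in CCL19-KI mice. In these CCL19-KI mice *Arntl* had 8.21, 12.0 and 5.60 CPM under ND and 8.41, 10.7 and 7.70 CPM under a 60% HFD. The 7.70 CPM is of the library whose *Ccl19* went against its label. Over the 5 tests of whether an effect differed with genotype or diet, 0 members passed with limma (smallest adjusted p = 0.224) or edgeR, with at most 0.476% of all genes called in each (0%, 0.0056%). There were 7 calls at an unadjusted p below 0.05, where 9.56% to 22.3% of all genes were called (10.8%, 11% and 14.3% in the others).

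Over the 12 groups, *Arntl* passed the F test (adjusted p = 0.0386), as did 24.1% of all genes. Its group means ran from 3.57 ± 1.03 CPM (SD, 3 mice) in ND WT mice to 10.0 ± 5.10 CPM in ligatured 40% HFD CCL19-KI mice, where 1 mouse was at 15.9 CPM and the other two at 7.67 and 6.51 CPM. No gap between neighbours in that order was larger than the larger SD of the pair. The same held for 8 of the 10 members, with 1 such gap of 11 each for *Npas2* and *Nr1d1*. *Per3* (adjusted p = 0.0542) and *Npas2* (adjusted p = 0.0719) came next. The ND WT ligature group had the highest mean of *Per1*, *Per2*, *Ciart*, *Nr1d1*, *Nr1d2* and *Dbp*, for instance 144 ± 17.4 CPM for *Nr1d2* and 71.0 ± 7.96 CPM for *Dbp*. *Ciart* varied most within groups, with a within-group SD of 0.83 on the log2 scale, and *Nr1d2* least, with 0.29.

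Mice of 1 group were spread along a common pattern, with *Arntl* and *Npas2* at one end and *Per2*, *Nr1d2* and *Dbp* at the other. The ratio of *Dbp* to *Arntl* CPM was used to place each mouse, as a value with no test. Over the 36 mice it ran from 1.14 to 31.2, with a median of 7.67. Its lowest, median and highest values were 2.60, 11.7 and 31.2 under ND, 1.14, 8.30 and 13.7 under a 40% HFD, and 1.82, 5.50 and 10.7 under a 60% HFD. The highest was in ND WT replicate 3 and the lowest in ligatured 40% HFD CCL19-KI replicate 3, the mouse with 15.9 CPM of *Arntl*. Within the 3 mice of the ligatured ND CCL19-KI group it ran from 7.55 to 29.3, so that mice of 1 group could lie as far apart as mice of different diets. A ratio of *Dbp* to *Arntl* marks no hour by itself.

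**Figure D3:**
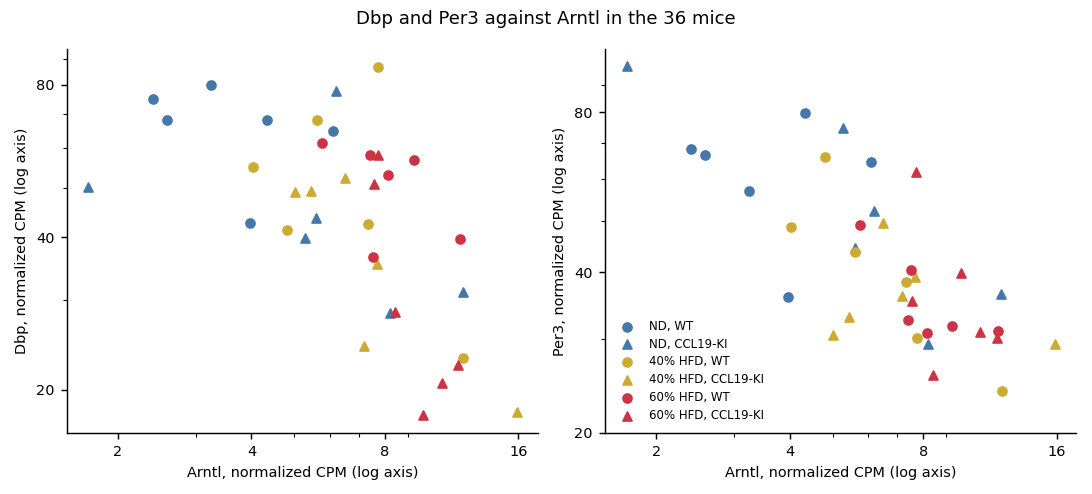
*Dbp* (left) and *Per3* (right) against *Arntl* in each of the 36 mice, in normalized CPM on log axes. Mice with more *Arntl* had less *Dbp* and less *Per3*, with *Dbp* to *Arntl* ratios from 1.14 to 31.2.

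After each group's mean was taken away, 20 of the 45 pairs of members were correlated over the 36 mice (adjusted p below 0.05 over the 45 pairs, permutation within groups), 12 with a positive and 8 with a negative sign. How many pairs of other genes would pass was not counted, so 20 of 45 is not set against a share. Ranked by r with *Dbp* among 11797 genes, *Nr1d2* was 2nd but *Per2* (r = 0.58) was 1082nd. Ranked by r with *Arntl*, *Per2* was 11796th and *Dbp* 11781st. All 20 pairs kept their sign without the 2 mice farthest from the median, and all 20 passed without the 2 libraries that went against their labels. *Nr1d2* and *Dbp* were the closest pair (r = 0.85, permutation p = 1e-05, adjusted p = 0.00015; rho = 0.88, permutation p = 1e-05, adjusted p = 0.000225), with r = 0.84 without 2 mice. The p of 1e-05 is the smallest the 100000 permutations can give. *Ciart* and *Nr1d2* followed (r = 0.80, adjusted p = 0.00015; rho = 0.80, adjusted p = 0.000225; permutation p = 1e-05 for both), with r = 0.80 without 2 mice.

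*Arntl* and *Npas2* were correlated with each other, and of their 10 pairs with the repressors 5 passed, all with a negative sign: *Arntl* with *Per2* and *Per3*, and *Npas2* with *Per2*, *Cry1* and *Ciart*. The other 5 pairs, of *Arntl* with *Per1*, *Cry1* and *Ciart* and of *Npas2* with *Per1* and *Per3*, did not pass (adjusted permutation p = 0.0571 to 0.881). *Arntl* and *Npas2* had r = 0.66 (permutation p = 0.00234, adjusted p = 0.0103) and rho = 0.60 (permutation p = 0.00237, adjusted p = 0.010), with r = 0.64 without 2 mice. *Arntl* and *Per2* had r = −0.69 (permutation p = 0.00143, adjusted p = 0.00715) and rho = −0.63 (permutation p = 0.00225, adjusted p = 0.010), with r = −0.63 without 2 mice. *Arntl* and *Dbp* had r = −0.55 (permutation p = 0.00422, adjusted p = 0.0112) and rho = −0.59 (permutation p = 0.00164, adjusted p = 0.010), with r = −0.57 without 2 mice. *Per2* and *Cry1*, whose proteins bind each other, had r = 0.70 (permutation p = 0.00042, adjusted p = 0.00472) and rho = 0.68 (permutation p = 0.00048, adjusted p = 0.0054), with r = 0.65 without 2 mice. *Nr1d1* passed with no other member. Its last exons overlap those of *Thra*, a thyroid hormone receptor gene on the other strand, over 1075 bases (chr11:98767932-98769006, GRCm38), and the strand setting of the counting is not stated in the sources used here. *Thra* itself fell by 0.32 at 60% HFD (adjusted p = 0.0413).

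**Figure D4:**
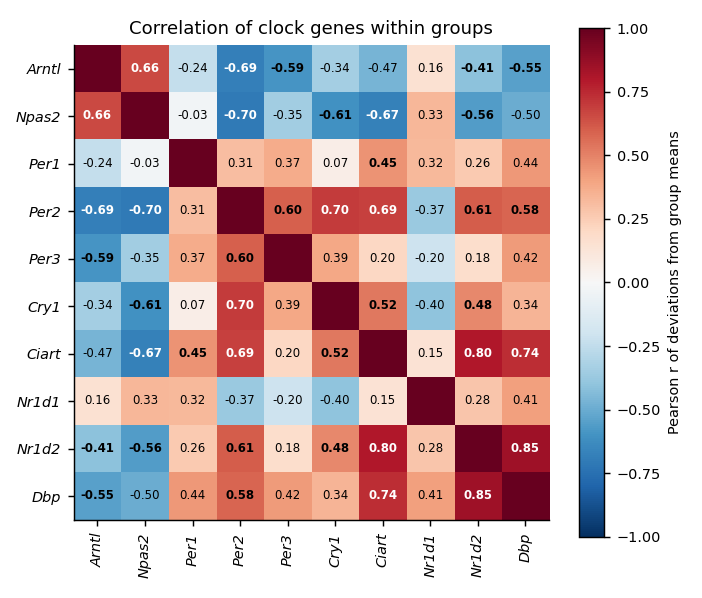
Pearson's r within groups for the 45 pairs of clock genes over 36 mice, from −1 to 1. Bold values passed the permutation test after adjustment (20 pairs), and the negative ones each join *Arntl* or *Npas2* to a gene of the other arm.

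Some members also followed the RNA of other tissues within groups, tested over 40 relations of a member with a marker score. *Ciart* and the hepatocyte score had r = 0.77 (permutation p = 1e-05, the smallest possible, adjusted p = 0.0004) and rho = 0.75 (permutation p = 5e-05, adjusted p = 0.0020), with r = 0.77 without 2 mice. *Nr1d2* and the hepatocyte score had r = 0.56 (permutation p = 0.00035, adjusted p = 0.0070) and rho = 0.54 (permutation p = 0.00272, adjusted p = 0.0278), with r = 0.54 without 2 mice. *Arntl* and the hepatocyte score had r = −0.18 (permutation p = 0.531, adjusted p = 0.758) and rho = −0.24 (permutation p = 0.304, adjusted p = 0.513), with r = −0.35 without 2 mice. In all, 6 of the 40 relations passed. The others with a positive sign were *Nr1d2* (r = 0.62) and *Dbp* (r = 0.53) with the kidney tubule score. With the adipocyte score, of the sampled tissue itself, the sign was negative, for *Nr1d2* (r = −0.63) and *Cry1* (r = −0.53). How much of the *Ciart* and *Nr1d2* reads came from other tissue was not tested.

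**Figure D5:**
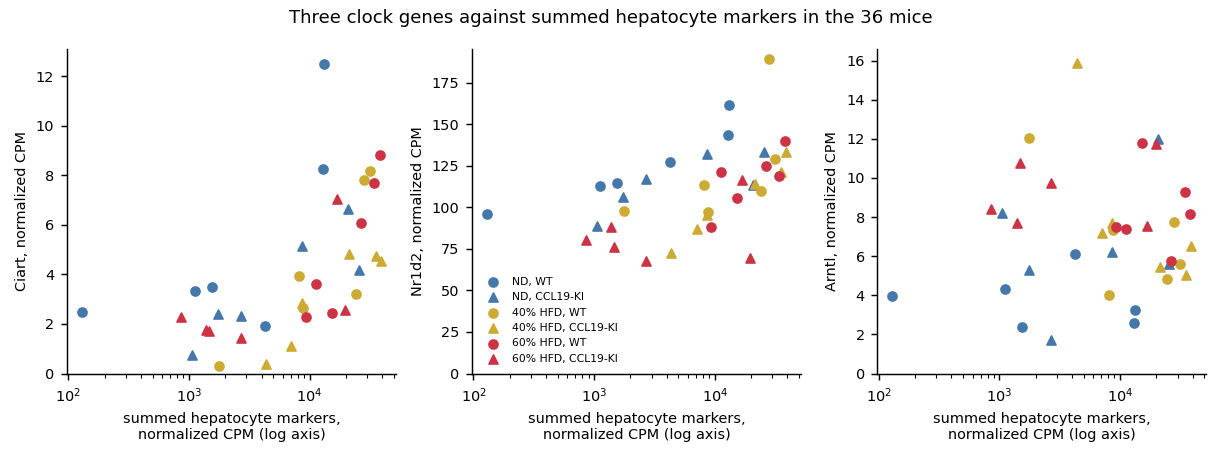
*Ciart*, *Nr1d2* and *Arntl* in normalized CPM against the summed CPM of 8 hepatocyte markers (log axis) in the 36 mice. With group means taken away, which the figure does not show, *Ciart* and *Nr1d2* followed the hepatocyte score (r = 0.77 and 0.56) and *Arntl* did not (r = −0.18). Over the 36 mice as they are, r was 0.51, 0.33 and 0.30 for *Ciart*, *Nr1d2* and *Arntl* (adjusted permutation p = 0.0548, 0.309 and 0.342). There, rho was 0.67, 0.52 and 0.13 (adjusted permutation p = 0.0012, 0.0278 and 0.677).

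Of 19 other genes of the clock, all of which were tested, 3 passed at 40% HFD (9.21% of all genes) and 2 at 60% HFD (18.6%). Among the 12 groups 4 passed the F test, *Rora*, *Rorb*, *Bhlhe41* and *Btrc*, where 24.1% of all genes did. *Clock*, the usual partner of BMAL1, had a median of 108 CPM under ND, 124 CPM under a 40% HFD and 127 CPM under a 60% HFD. It rose by 0.29 at 40% (adjusted p = 0.0474) and 0.28 at 60% (adjusted p = 0.0403). *Bhlhe41*, a repressor that competes for E-boxes, fell by 0.50 at 40% (adjusted p = 0.0389), with medians of 18.8 CPM under ND and 13.2 CPM under a 40% HFD. *Rorb*, a ROR receptor gene, passed in both with −0.44 and −0.51, but its medians were at most 0.496 CPM, a few reads. At 60% that made 1 higher and 1 lower of 19, with a median change of −0.07 against 0.01 over all genes. With limma, 0 of 19 passed for ligature, where 0.325% of all genes did, and 3 at an unadjusted p below 0.05, where 16.2% did. For genotype 0 of 19 passed, where 0.459% of all genes did, and 4 at an unadjusted p below 0.05, where 16.9% did. *Tef*, a relative of *Dbp* that binds the same D-box, changed by −0.39 at 60% (adjusted p = 0.080), and *Nfil3*, which represses from that site, by 0.44 (adjusted p = 0.178).

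Among the 11797 genes with a mean of at least 5 CPM, those most like *Dbp* within groups were *Tef*, *Nr1d2*, *Pex26*, *Coq10b* and *Phactr4* (Pearson's r from 0.87 to 0.81 over 36 mice, a description with no test). Those most like *Arntl* were *Traf5*, *Junb*, *Egr1*, *Rbm41* and *Btg2* (r from 0.70 to 0.63). *Npas2* (r = 0.66 with *Arntl*) had a mean below 5 CPM and so was not ranked. *Per2* was the gene least like *Arntl* of all 11797 (r = −0.69), and *Wee1*, a cell cycle kinase gene with E-boxes, was the 4th (r = −0.66).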

How the data were processed

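RNA of eWAT was depleted of ribosomal RNA and sequenced with a directional library kit. Per the authors, reads were trimmed with Trimmomatic, aligned with Bowtie2 within RSEM and normalized with edgeR. The deposited values, used as a signal, are normalized CPM of gene counts. The study's methods name the build mm10 and the labels GRCm39, and positions here are from GENCODE M21 on GRCm38. Whole reads per gene were recovered from the deposited values (100.0% whole within 0.01) for an edgeR 4.0.16 alternative.

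Genes of at least 1 CPM in at least 3 libraries (17852) were tested on log2(CPM + 1) with limma 3.58.1 (empirical Bayes with a trend) in R 4.3.3, in 1 fit of 36 mice, with Benjamini-Hochberg adjustment over all genes. Correlations used 100000 permutations within groups on deviations from group means. No pair of libraries agreed within counting noise (lowest chi-square per degree of freedom 11.9). Whether each label marks a separate litter or cage is not stated. The clock genes and the lists (19 other clock genes; steroid, immediate early and temperature response; cell type markers) were chosen with earlier results of these data known. Genes beyond the lists are the 5 most and 5 least like *Arntl* and *Dbp*, those named being a part. The fits were tested on simulated data. Alternatives are described with their effects.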

Additional observations from a re-analysis of the deposited data

How the results depend on the processing

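At 60% HFD, 4 members passed, and this count stayed within 1.5 times under pseudocounts of 0.1, a mean filter of 5 CPM, median-of-ratios scaling, robust eBayes and edgeR, and was 3 to 5 without any 1 mouse. It was 7 under quantile normalization, sample quality weights (which did not converge) and the hepatocyte covariate, 2 without the 6 libraries rich in epididymis markers, and 0 without the 11 rich in hepatocyte markers, where 25 mice were left. The libraries left out by marker sum or by *Ccl19* were chosen after seeing the data. At 40% HFD, where 1 passed, the count was 3 (quantile), 4 (weights), 0 (kidney tubule or epididymis covariate, ratio of 1.5 with an unadjusted p, or without the hepatocyte-rich libraries), 2 (without the epididymis-rich libraries) and 0 to 3 without 1 mouse. The cause was not tested. Counts of members in this section are not set beside the share of all genes in each setting. That share moved as well, so a higher count is not by itself a result about the clock genes.

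Among the 12 groups, where 1 passed, the count was 0 (no filter, epididymis covariate, hepatocyte-rich libraries left out), 2 (kidney tubule covariate, 2 *Ccl19* libraries left out), 3 (quantile, edgeR, epididymis-rich libraries left out), 4 (hepatocyte covariate), 10 (weights) and 0 to 3 without 1 mouse. All genes called in this test ran from 79 to 16490 over the alternatives. For genotype, with 0, it was 4 (weights), 2 (adipocyte covariate, epididymis-rich libraries left out), 1 (ratio of 1.5, 2 *Ccl19* libraries left out) and 0 to 1 without 1 mouse. For ligature, with 0, it was 2 with weights and 0 without any 1 mouse. Between the high-fat diets, with 0, it was 1 with weights and 0 to 1 without 1 mouse.

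The 6 ligature comparisons, with 0 calls, gave 7 (weights), 5 (ratio of 1.5), 1 (epididymis-rich or *Ccl19* libraries left out) and 0 to 1 without 1 mouse. The 6 genotype comparisons, with 1, gave 0 (pseudocount of 5, no filter, quantile, hepatocyte or kidney tubule covariate, hepatocyte-rich libraries left out), 2 (adipocyte covariate, epididymis-rich libraries left out), 6 (ratio of 1.5), 11 (weights) and 0 to 2 without 1 mouse. The 12 diet comparisons, with 3, gave 1 (pseudocount of 5, no filter, epididymis covariate), 6 (quantile, hepatocyte covariate), 20 (ratio of 1.5), 26 (weights), 0 (hepatocyte-rich libraries left out) and 0 to 7 without 1 mouse. The 5 differences, with 0, gave 8 (weights), 5 (ratio of 1.5) and 0 without any 1 mouse. The replicate numbers did not pair the mice (mean r of same-numbered mice −0.008 over 198 pairs); with the replicate block 2 members passed among the 12 groups and 0 in the 6 genotype comparisons, and the other counts stayed within 1.5 times.

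Of 672 member values under the alternatives that keep or drop several mice, 24 reversed, and none of these was a value that had passed: for ligature, *Dbp* 0.0128 (quantile), 0.0491 (kidney tubule), 0.0970 (adipocyte), 0.18 (hepatocyte-rich left out) and 0.0306 (*Ccl19* libraries left out), *Ciart* 0.0076 (edgeR), 0.0353 (kidney tubule), 0.23 (adipocyte) and 0.41 (hepatocyte-rich left out), *Nr1d1* −0.13 (weights), −0.0112 (epididymis) and −0.0872 (epididymis-rich left out), *Nr1d2* −0.0382 (weights), −0.0277 (hepatocyte) and −0.0187 (epididymis-rich left out), and *Arntl* −0.0168 (kidney tubule) and −0.0845 (epididymis-rich left out); for genotype, *Per1* 0.0169 (quantile) and *Cry1* 0.0067 (weights), 0.0799 (epididymis-rich left out) and 0.0140 (*Ccl19* libraries left out); for diet, *Nr1d1* −0.0242 at 40% (hepatocyte), and *Cry1* 0.0576 and *Ciart* 0.0322 at 60% (epididymis-rich left out). Without 1 mouse, the ligature values that changed sign ran from −0.0496 to 0.0935 for *Arntl*, −0.187 to 0.0230 for *Ciart*, −0.0800 to 0.0900 for *Nr1d1*, −0.0307 to 0.0529 for *Nr1d2* and −0.125 to 0.0159 for *Dbp*. *Cry1* between genotypes ran from −0.107 to 0.0012, *Npas2* at 40% from −0.0437 to 0.18, and at 60% *Ciart* from −0.257 to 0.0179 and *Nr1d1* from −0.227 to 0.0281. Over all genes, the counts called ranged from 782 to 7846 (60%, reported 3315), 0 to 4797 (40%, 1645), 79 to 16490 (12 groups, 4308), 1 to 3795 (genotype, 82), 0 to 2258 (ligature, 58) and 0 to 1448 (between high-fat diets, 133). *Npas2* and *Ciart* rest on as few as 3 and 5 reads in a library, which limits their precision.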

Other observations

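Beside the clock genes, 3 short lists of genes that respond to signals known to act on the clock were looked at under the 60% HFD. Of 5 genes that glucocorticoids raise, 2 fell: *Fkbp5*, a chaperone of the glucocorticoid receptor, by 0.76 on the log2 scale (adjusted p = 0.0305), with medians of 132 CPM under ND and 72.2 CPM under a 60% HFD, and *Zbtb16*, a transcription factor gene, by 0.64 (adjusted p = 0.0141), with medians of 115 and 83.9 CPM. All 5 had a negative change. Of 7 immediate early genes, *Fos* rose by 1.21 (adjusted p = 0.0403), with medians of 11.1 and 35.0 CPM, and *Atf3* by 1.23 (adjusted p = 0.0162), with medians of 7.65 and 20.8 CPM, and all 7 had a positive change. In both lists the ranges of the diets overlapped, and 18.6% of all genes passed.

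Of 6 genes that respond to temperature, *Cirbp*, a cold-induced RNA-binding protein gene, fell by 0.70 at 40% (adjusted p = 0.0188) and by 0.60 at 60% HFD (adjusted p = 0.0230), with medians of 26.5 CPM under ND, 14.4 CPM under a 40% HFD and 17.3 CPM under a 60% HFD. *Rbm3*, also cold-induced, fell by 0.38 at 40% HFD (adjusted p = 0.0115). *Hsph1*, a heat shock protein gene, rose by 0.92 at 40% (adjusted p = 0.00676) and 0.90 at 60% HFD (adjusted p = 0.00292), with medians of 29.8, 55.6 and 66.7 CPM. Of all genes, 9.21% passed at 40% and 18.6% at 60% HFD, and the comparisons share the ND-fed mice. Changes with diet of the list's other genes, *Hspa1a*, *Hspa1b* and *Dnajb1*, are not given here. In the F test over the 12 groups, *Dnajb1* passed (adjusted p = 0.0462), and *Hspa1a* (adjusted p = 0.659) and *Hspa1b* (adjusted p = 0.230) did not. For ligature and genotype, 0 genes of the 3 lists passed with limma, and at an unadjusted p below 0.05 there were 3 of 18 for ligature (16.2% of all genes) and 2 of 18 for genotype (16.9%).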
